A study of Mus musculus with 8 samples.

Results

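The regions described are the 10 kb downstream of the ends of protein-coding genes, and what was followed there is how far trimethylation of histone H3 at lysine 36 (H3K36me3) ran past the end of a gene. Of 20807 protein-coding genes on the 19 mouse autosomes (GENCODE M21, mm10), 5912 had no other annotated gene within 15 kb downstream of their outermost end. Of these isolated ends, 2119 carried an H3K36me3 peak in the last 2 kb of the gene in at least 1 of the 4 peak lists and make up the set. The windows were therefore chosen by measured values, namely the peaks in the last 2 kb, and those values are given below as a description only. A peak that crosses the end of a gene also counts in the window, so the mark in the window is not independent of the rule. The genes lay on the forward strand in 1074 cases, and in 76 cases another gene overlapped the last 2 kb. The symbols Fam220a and Ptp4a1 each stand for a pair of gene records that share an end.

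H3K36me3 is deposited during transcription by SETD2, an enzyme that travels with elongating RNA polymerase II, and it builds up along the bodies of transcribed genes towards their 3′ ends. RNA polymerase II does not stop at the polyadenylation site: the transcript is cleaved there, and the polymerase goes on for some distance before it is released. The mark can therefore extend beyond the annotated end of a gene. Its writers use S-adenosylmethionine, whose supply depends on methionine synthase, a vitamin B12-dependent enzyme.

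The cells were i4F MEFs, mouse embryonic fibroblasts that all carry a doxycycline-inducible cassette of Oct4, Sox2, Klf4 and Myc (OSKM). They came from 1 E13.5 embryo (Clone 1 in the labels) and were kept in iPSC medium for 72 h. Cells without doxycycline were left unsupplemented (MEF) or given 2 µM vitamin B12 (MEF B12), and cells with doxycycline at 1 µg/ml, as the labels give it, were left unsupplemented (OSKM) or given 2 µM vitamin B12 (OSKM B12). With 1 H3K36me3 library and 1 input library for each condition, 8 samples in all, differences between conditions could not be set against replicate error, and no test was run.

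After filtering, the H3K36me3 libraries held between 29046913 (MEF B12) and 33399267 (OSKM) tags, and the lists held between 64364 and 67234 peaks on the autosomes, covering 91.8 Mb in OSKM and 150 to 163 Mb in the other lists. OSKM was thus the most deeply sequenced library and the one with the least sequence in peaks. Of 12 fibroblast marker genes, 11 had at least 10% of their body in peaks in every list, and none of 8 pluripotency or 6 epithelial markers did in any list. Among the other markers Cd68 and Csf1r passed that level in all 4 lists, Tubb3 in all but OSKM, and Tek in OSKM B12. The part of a mixture of cells in the results was not tested. A pileup is the mean number of extended fragments over the bases of a peak, and it is given here per 1000000 tags unless fragments are named. Values in the 4 lists follow the order MEF, MEF B12, OSKM and OSKM B12 throughout.

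Sequences are shown for the points where the annotated gene stops and the window begins at the ends with the most signal. They are the first 60 bases past the end on the gene's strand, read 5′ to 3′ from the RefSeq copy of GRCm38.p6, the build that mm10 names. Capitals mark TGTGT, a run of the GT-rich kind found downstream of many cleavage sites. The 60 bases lie at chr14:73362166-73362225 (minus strand) for Itm2b, chr15:76170914-76170973 (minus) for Plec, chr2:130171354-130171413 (minus) for Snrpb and chr16:3750791-3750850 (plus) for Zfp263.
Itm2b: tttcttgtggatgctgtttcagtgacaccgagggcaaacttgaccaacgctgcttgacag
Plec: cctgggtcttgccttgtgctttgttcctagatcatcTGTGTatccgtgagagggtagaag
Snrpb: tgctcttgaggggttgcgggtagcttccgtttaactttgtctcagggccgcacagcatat
Zfp263: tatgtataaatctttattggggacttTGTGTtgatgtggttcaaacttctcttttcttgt
Plec and Zfp263 had the motif within these bases, and the other two did not. Over all 2119 windows, TGTGT was found on the gene's strand in the first 60 bases of 545 (25.7%), against 22.3% of all 5912 isolated ends. The polyadenylation signal AATAAA or its variant ATTAAA, also searched on the gene's strand only, lay in the last 40 bases before the end of 1704 genes (80.4%), against 71.0% of all isolated ends. The sequences of Dyrk1b and Ybx1, which also had high signal, are not shown because RefSeq takes these genes 10616 and 654 bases further than GENCODE does. Snrpb is shown although its RefSeq end lies at -222 bases from the GENCODE end, so its 60 bases do not begin at the RefSeq end.

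In MEF, the mark ran past most of the gene ends it reached. The last 2 kb carried a peak at 1864, 1915, 1460 and 1917 of the 2119 ends in the 4 lists, and at 1395 ends in all of them. The reach was taken as the distance from the gene end to the end of the stretch of peaks that touched the last 2 kb, with gaps of up to 1 kb bridged and a limit of 10 kb. A negative reach means that this stretch stopped before the end. Peaks beyond a gap of over 1 kb may still lie past the end and are not counted in the reach. Over the 1864 ends marked in MEF, the median reach was 753 bases, with quartiles of -336.5 and 1776 bases. At 611 of them (32.8%) the stretch stopped before the end, at 385 it ran 2 kb or more past it and at 41 it ran 5 kb or more. Only Itm2b had a reach at the limit of the window, by a bridged gap: the last peak that began inside its window ended at 9640 bases. Since a fragment was about 290 bases long (288 to 292), reaches shorter than that are below the resolution of the data, and 1134 of the 1864 ends exceeded it.

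The mark thinned out over the first kilobases. In MEF, 61.7% of the bases in the last 2 kb of the genes lay in peaks, then 47.7% in the first kilobase past the end, 27.0% in the second, 13.0% in the third, 5.13% from 3 to 5 kb and 1.39% from 5 to 10 kb. Among the 2011 genes of at least 5 kb, the covered share dropped below 50% of its value in the last 1 kb at 1450 bases past the end. The pileup within peaks changed less: it was 0.604 per 1000000 tags in the last 2 kb and 0.451 at 5 to 10 kb. The loss with distance was thus mostly in how many bases were called, and mark below the threshold of the caller is not in the lists.

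**Figure D1:**
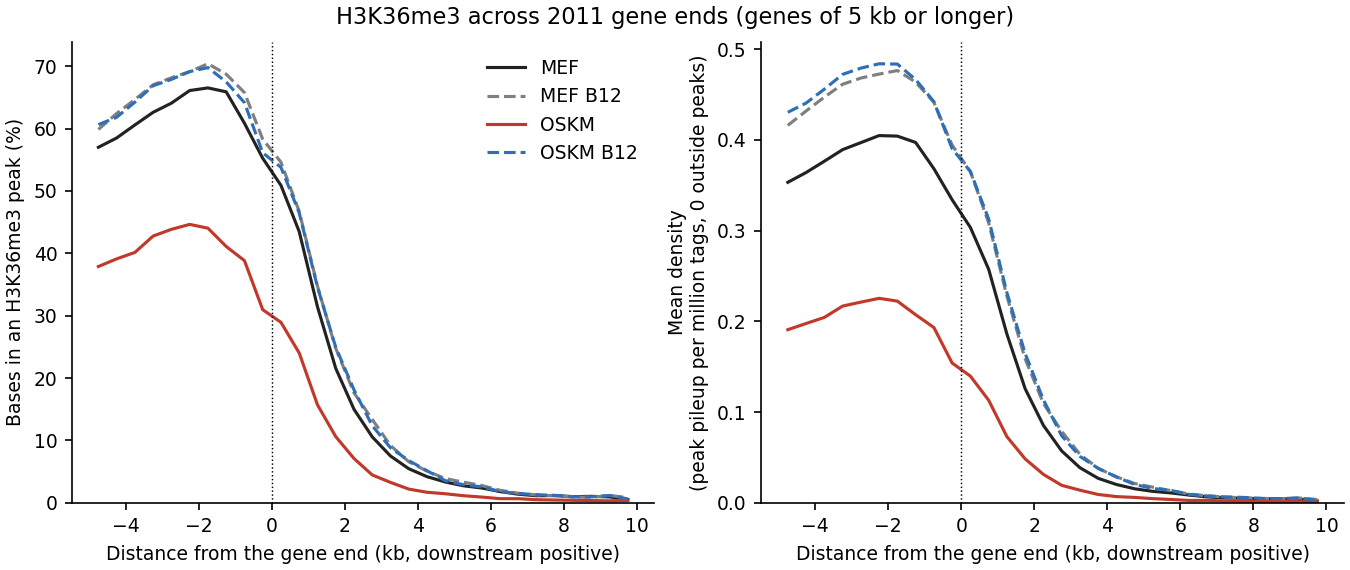
Share of bases in a peak (left, %) and mean density (right, peak pileup per 1000000 tags with bases outside peaks at 0) in 500-base steps from 5 kb before to 10 kb after the end of 2011 genes, with 1 line per library. All lines fall steeply over the first 3 kb; OSKM lies lowest, and MEF B12 and OSKM B12 lie close to each other and, over the first 5 kb past the end, above MEF.

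Windows past ends without the mark were almost bare, as were the regions before gene starts. Of the 3793 isolated ends with no peak in the last 2 kb, 33 (0.870%, 95% Wilson interval 0.620 to 1.22%) had a peak anywhere in the 10 kb window in MEF, and the numbers in the other lists were 43, 26 and 44. Those for the 2119 windows were 1432 (67.6%, 65.6 to 69.5%), 1502, 1019 and 1485. Intervals here and below cover counting error only. This contrast is in part built into the rule, since an end without a peak in its last 2 kb cannot have a peak that crosses it. In MEF, 1122 windows of the set had a crossing peak. Among the 813 genes in the set whose start was likewise free of other genes for 15 kb, 507 windows downstream of the end held a peak in MEF and 6 windows of 10 kb upstream of the start did. The upstream count was also 6 with B12, with or without doxycycline, and 21 in OSKM, where 13 windows had a peak within 2 kb of the start. Upstream of starts OSKM thus had the most windows with a peak of the 4 lists, whereas downstream of the same genes it had the fewest, 358. These genes were chosen for a peak near their end and not near their start, so the excess downstream is in part built in as well.

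The first comparison set OSKM against MEF at 72 h, and the mark past the end was shorter and weaker in the OSKM library. Doxycycline and OSKM induction went together in this design and cannot be told apart. The part of the yield of a single immunoprecipitation was not tested. Window density, the pileup summed over the bases in peaks and divided by 10 kb, was at least 1.5-fold lower in OSKM than in MEF at 1125 of 2119 windows (53.1%) and higher at 58 (2.74%). A pseudocount of 0.01 was added. Among 9715 protein-coding gene bodies with at least 10% of their length in peaks in some list, 80.1% were lower and 0.823% higher by the same rule, so the windows had a smaller share of lower calls than gene bodies at large. A window without a peak in either list cannot be called, and 636 were of this kind, while 464 held a peak in MEF only and 51 in OSKM only. Among the 968 windows with a peak in both, 740 (76.4%) were lower, with a median log2 change of -1.09. The mean density over all windows was 0.0597 in MEF and 0.0246 in OSKM, a ratio of 0.413. The mean covered length was 1049 and 535 bases, and the mean pileup over covered bases was 0.569 and 0.460 per 1000000 tags.

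Reach was shorter in OSKM as well. Of the 1460 ends marked in OSKM, 389 (26.6%, 24.4 to 29.0%) had a reach of 1 kb or more, against 801 of 1864 (43.0%, 40.7 to 45.2%) in MEF, and the median reach was 55 bases. At the 1395 ends marked in all 4 lists, the median was 1090 bases in MEF and 151 in OSKM. The stretch that touched the last 2 kb stopped before the end at 298 (21.4%) and 653 (46.8%) of them, whether or not separate peaks lay further out. End by end, the reach was shorter in OSKM at 81.1% of these and longer at 18.8%, with a median difference of -660 bases and quartiles of -1583.5 and -89 bases. Over the 1423 ends marked in both lists, the reach was shorter by 1 kb or more at 540 (37.9%) and longer by that much at 27 (1.90%). Another 303 ends were marked in the other 3 lists and not in OSKM, whereas 17, 16 and 8 were missing only from MEF, MEF B12 and OSKM B12.

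**Figure D2:**
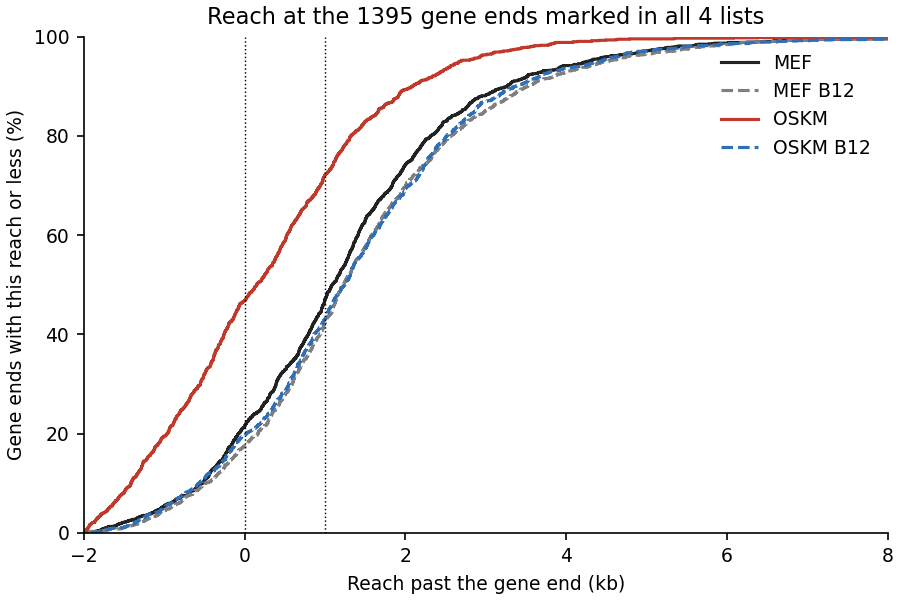
Cumulative share of the 1395 gene ends marked in all 4 lists (vertical axis, %) by reach past the end (horizontal axis, kb), 1 line per library, with dotted lines at 0 and 1 kb. At 0 kb the OSKM line stands at about 46.8% and the other lines at 17.5 to 21.4%; from 0 kb onwards OSKM stays to the left of the others.

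The ratio of OSKM to MEF was also taken by distance, over peaks called separately in each list. That of mean density was 0.518 in the last 2 kb of the gene, 0.457 in the first kilobase past the end, 0.392 in the second, and 0.353 to 0.355 in each stretch from 2 to 10 kb. The ratio of covered bases followed the same course, from 0.625 in the last 2 kb through 0.568 and 0.499 to 0.406 at 5 to 10 kb. The ratio of pileup within peaks showed no such course and lay between 0.781 and 0.875 in all these stretches. The course was thus in the bases called, and what a fixed threshold on a fading mark contributes to it was not tested. The covered share in OSKM dropped below 50% of its own value in the last 1 kb at 1150 bases, against 1450 bases in MEF. Peaks in the windows were also weaker relative to input in OSKM, with a median fold enrichment of 2.67 against 2.89 in MEF, and 6.22% of them had a −log10 q of at least 5, against 30.8% in MEF.

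The second comparison set OSKM B12 against OSKM, and the mark past the end was longer and stronger in the OSKM B12 library. Window density was at least 1.5-fold higher in OSKM B12 than in OSKM at 1316 windows (62.1%) and lower at 35 (1.65%). The same rule called 97.1% of the gene bodies higher and 0.299% lower. Of the 985 windows with a peak in both lists, 879 (89.2%) were higher, and a further 500 held a peak in OSKM B12 only, against 34 in OSKM only. The ratio of mean window density was 3.01, from 0.0246 to 0.0742, with mean covered lengths of 535 and 1155 bases and mean pileups over covered bases of 0.460 and 0.643. This ratio was 2.29 in the last 2 kb, 2.64 in the first kilobase past the end, 3.22 in the second, 3.69 in the third, 3.83 at 3 to 5 kb and 3.31 at 5 to 10 kb.

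With B12, 881 of 1917 marked ends (46.0%, 43.7 to 48.2%) had a reach of 1 kb or more. At the 1395 ends marked in all lists, the median reach was 1246 bases in OSKM B12, and the reach was longer than in OSKM at 85.7% of them, by a median of 753 bases. Over the 1433 ends marked in both lists, it was longer by 1 kb or more at 602 (42.0%) and shorter by that much at 21 (1.47%). Of the window bases in OSKM peaks, 88.8% were also in OSKM B12 peaks, while these made up 41.2% of the bases in OSKM B12 peaks. The window bases called in OSKM thus lay for the most part inside those called with B12, as 85.4% of the OSKM bases lay inside MEF peaks, which is 43.6% of the MEF bases.

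The third comparison was of vitamin B12 without doxycycline, and the difference was smaller. Window density was at least 1.5-fold higher in MEF B12 than in MEF at 481 windows (22.7%) and lower at 164 (7.74%). Among gene bodies these shares were 8.13% and 1.45%, so both shares were larger among the windows. The median log2 change was nevertheless smaller over all windows, 0.06 against 0.24 over the gene bodies. Of the windows, 514 had no peak in either list, 173 held one in MEF B12 only and 103 in MEF only. Over the 1329 windows with a peak in both lists, the median without a pseudocount was 0.31. The mean density was 0.0597 and 0.0742, a ratio of 1.24, with mean covered lengths of 1049 and 1175 bases and mean pileups of 0.569 and 0.631. The ratio was 1.18 in the last 2 kb, 1.20 in the first kilobase past the end, 1.32 in the third, 1.42 at 3 to 5 kb and 1.20 at 5 to 10 kb. In MEF B12, 883 of 1915 marked ends (46.1%, 43.9 to 48.3%) had a reach of 1 kb or more, against 43.0% in MEF. At the ends marked in all lists, the median reach was 1219 bases, the median difference from MEF was 94 bases, and 62.4% of the reaches were within 500 bases of each other. Over the 1759 ends marked in both, the reach was longer by 1 kb or more at 228 (13.0%) and shorter at 115 (6.54%).

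OSKM B12 and MEF differed about as little as MEF B12 and MEF did. The median reach difference between OSKM B12 and MEF at the ends marked in all lists was 55 bases, with quartiles of -231 and 453 bases, and 60.4% were within 500 bases. The ratio of mean window density was 1.24, equal to that of MEF B12 to MEF at this precision. These comparisons share the MEF library, and they are set side by side as values only.

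**Figure D3:**
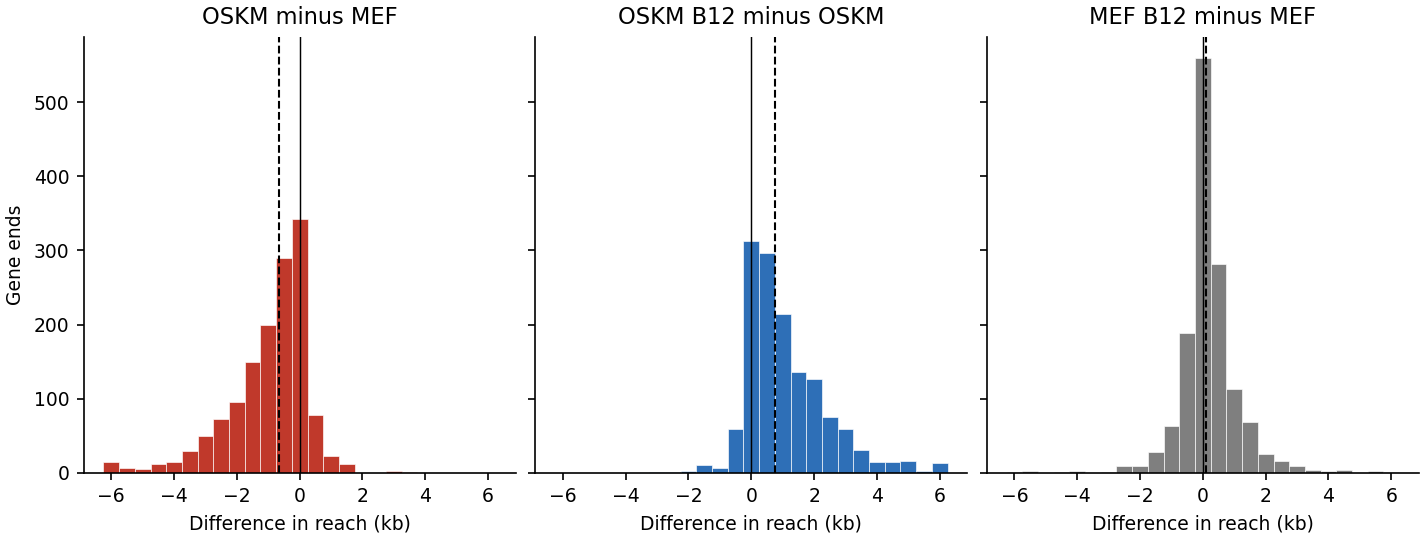
Number of gene ends (vertical axis) by difference in reach (horizontal axis, kb, in steps of 0.5 kb, with larger differences drawn at 6 kb on either side) for the 1395 ends marked in all 4 lists. The solid line is 0 and the dashed line the median: -660 bases for OSKM minus MEF, 753 for OSKM B12 minus OSKM and 94 for MEF B12 minus MEF.

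The libraries differed in how many bases were called and also in the level over bases called in every list. A total of 881 kb of window sequence, at 895 ends, lay in peaks in all 4 lists. Over these same bases the mean pileup was 0.644, 0.735, 0.478 and 0.755 in the 4 lists. The ratio of OSKM to MEF was 0.743 and that of OSKM B12 to OSKM was 1.58. In the 1484 kb of the last 2 kb called in all lists, these ratios were 0.766 and 1.53, close to those past the end. A peak has a single pileup value along its length, so where it crosses the end the value is shared between gene and window. Peaks crossed the end of 1122 (53.0%), 1193, 610 (28.8%) and 1133 genes. When only peaks that start past the end were counted, the ratio of mean density was 0.754 for OSKM to MEF, 1.60 for OSKM B12 to OSKM and 1.10 for MEF B12 to MEF. This setting depends on the continuity of the peaks: at Itm2b it drops the MEF peak that runs to 7738 bases past the end and keeps the OSKM pieces from 5127 to 5501 and from 5884 to 6392 bases. Ratios nearer to 1 for OSKM against MEF and OSKM B12 are therefore in part built into it.

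The lists differed in how much of the genome they covered, and this bears on every count above. When each list was cut at the 91.8 Mb covered in OSKM, keeping the peaks with the smallest p, the ratio of mean window density was 0.635 for OSKM to MEF and 1.84 for OSKM B12 to OSKM. Then 519 windows were called lower in OSKM than in MEF and 569 higher in OSKM B12 than in OSKM. Of 990 ends still marked in both MEF and OSKM, 211 had a reach shorter by 1 kb or more in OSKM. This setting kept 14100 peaks of MEF and all 64364 of OSKM, and the order of the number of windows with a peak turned round, with 753 in MEF and 1019 in OSKM. The last 2 kb were then marked at 1056 ends in MEF and 1460 in OSKM, and 46.3% and 26.6% of these had a reach of 1 kb or more. The ends counted in MEF were thus those with its most significant peaks, while OSKM kept all of its ends, so these shares are not over like sets. This setting was chosen after the data were seen.

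Reach went with the level of the mark in the last 2 kb in every library. In MEF, ends with a density of up to 0.1 in the last 2 kb had a median reach of -1179.5 bases, and the median was -536.5 bases at 0.1 to 0.2, 301 at 0.2 to 0.4, 987 at 0.4 to 0.6 and 1656 at 0.6 to 0.8. In OSKM the medians were -1307, -680.5, 204, 1050 and 1236 bases in the same classes. Classes differed in how close the libraries were. Within that of 0.4 to 0.6, the medians of the 4 libraries were 987, 956, 1050 and 888 bases (433, 382, 349 and 357 ends), and the quartiles overlapped almost entirely. Within that of 0.6 to 0.8, they were 1656, 1548, 1236 and 1549 bases, and 72.0, 70.6, 54.7 and 66.8% of the ends had a reach of 1 kb or more, so OSKM was lowest there. The number of ends in the upper classes differed as well: 122, 283, 1 and 318 ends had a density above 0.8, and 411, 463, 64 and 419 lay between 0.6 and 0.8. Across the 1395 ends marked in all lists, Spearman's rho between this density and the reach was 0.46, 0.42, 0.59 and 0.42. As both come from the same peaks, often the same single peak, these are descriptions and not independent measures.

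**Figure D4:**
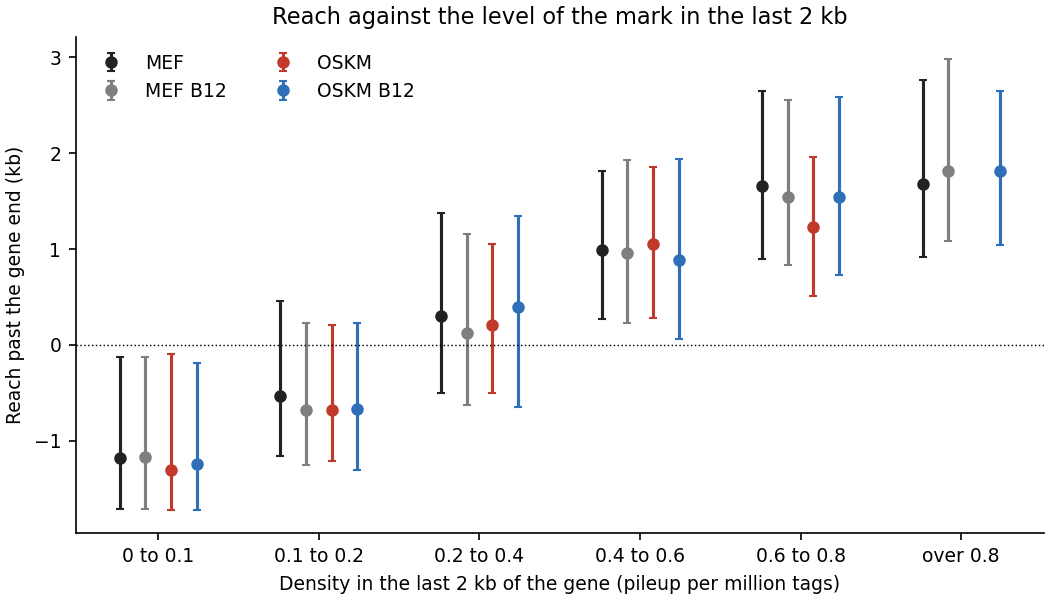
Reach past the gene end (vertical axis, kb; points are medians and bars the quartiles over gene ends) by density in the last 2 kb of the gene (horizontal axis, pileup per 1000000 tags), for each library, over the ends marked in that list and classes of at least 20 ends. The bars of the libraries overlap in each class, and the OSKM median is lowest at 0.6 to 0.8; OSKM has no point above 0.8, where it had 1 end.

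Properties of the gene and the window that the rule did not use went with reach to a smaller degree. The distance from the last coding base to the gene end, a median of 1401 bases, was the clearest: among the ends marked in all lists, the third with the shortest distance (up to 823 bases) had median reaches of 1428, 1584, 755 and 1690 bases, and the third with the longest (from 1879 bases) had 722, 816, -388 and 780 bases. GC content of the window went with reach in OSKM more than in the other libraries. Median reaches were 957, 1192, -260 and 1083 bases in the third with the lowest GC (up to 43.8%) and 1182, 1210, 513 and 1272 bases in the third with the highest (from 46.6%). Spearman's rho for GC was 0.21 in OSKM and 0.03 to 0.07 in the other libraries, over 1395 ends. Gene length showed a like pattern, with rho of -0.13 in OSKM and -0.03 to 0.01 in the others: for genes of 48053 bases or more the median reach was -201 bases in OSKM and 1073 bases in MEF. The repeat-masked share of the window had rho between -0.03 and 0.00. Whether the last 40 bases held AATAAA or ATTAAA made little difference, with a median reach in MEF of 1087 bases at 1123 ends with the signal and 1101 bases at 272 ends without.

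Where a gene ends depends on the annotation. RefSeq had a single overlapping gene of the same name for 2102 of the 2119, and put its end within 100 bases of the GENCODE end for 1688, 500 bases or more further for 162 and 500 bases or more short for 134. Among the 137 ends marked in MEF that RefSeq puts further, the mark ran past the RefSeq end at 29. Windows held a RefSeq gene of another name in 286 cases. Among the genes named below, the windows of Zfp263, Rnf7, Xpo6, Pja2, Tpm1 and Smad6 hold a RefSeq long non-coding RNA, and signal there may not belong to the named gene. At the 1089 ends marked in all lists where RefSeq neither extends the gene by over 100 bases nor has another gene in the window, the median reaches were 1099, 1237, 189 and 1258 bases. These are close to the values over all 1395 ends.

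The windows with the highest density in MEF belonged to genes of varied function. Itm2b encodes a transmembrane protein of the BRICHOS family. Its density was 0.729, 0.765, 0.357 and 0.837 in the 4 lists, and its reach was 10000, 10000, 6392 and 9617 bases. In MEF, 1 peak with a pileup of 28.2 fragments ran from inside the gene to 7738 bases past it, and in OSKM the crossing peak ended at 4668 bases with smaller peaks behind it. OSKM was thus the lowest of the 4 and the only list in which the continuous peak stopped short of 5 kb.

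Dyrk1b, a kinase gene on chromosome 7, had densities of 0.690, 0.732, 0.299 and 0.842 with reaches of 9084, 8568, 8371 and 8148 bases. Reach was nearly the same in all lists while the covered length in OSKM was 5824 bases against 9084 in MEF. The RefSeq model of Dyrk1b extends through this whole window, so the mark there lies inside the gene by that annotation. Ybx1, which encodes a cold-shock-domain protein that binds DNA and RNA, had densities of 0.541, 0.500, 0.214 and 0.647. Its reach was 8380, 8676, 1581 and 8414 bases, so that OSKM was separated from the other 3 by over 6 kb. The OSKM window still held 4875 bases of peaks, part of them beyond a gap wider than 1 kb, from 3579 to 4078 and from 4445 to 7240 bases past the end.

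Plec encodes plectin, a linker of intermediate filaments, and had the highest level at its end of these genes. The density in its last 2 kb was 1.66, 1.84, 1.09 and 2.10. Its reach was only 2995, 2714, 2646 and 2770 bases, so that a strong mark did not go with a long one at this end. Snrpb, a core protein of spliceosomal ribonucleoproteins, had window densities of 0.481, 0.516, 0.276 and 0.497 and reaches of 5576, 5436, 5344 and 5352 bases. The 4 reaches were within a fragment length of one another, and the covered length was 5026 bases in OSKM against 5955 in MEF, so the lower density in OSKM was mostly a lower pileup. Zfp263, a zinc-finger gene, had reaches of 2122, 1737, 1953 and 2277 bases but covered lengths of 7559, 7863, 4231 and 7533 bases. Most of its window signal was thus separate from the gene, and RefSeq has a long non-coding RNA in that window.

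**Figure D5:**
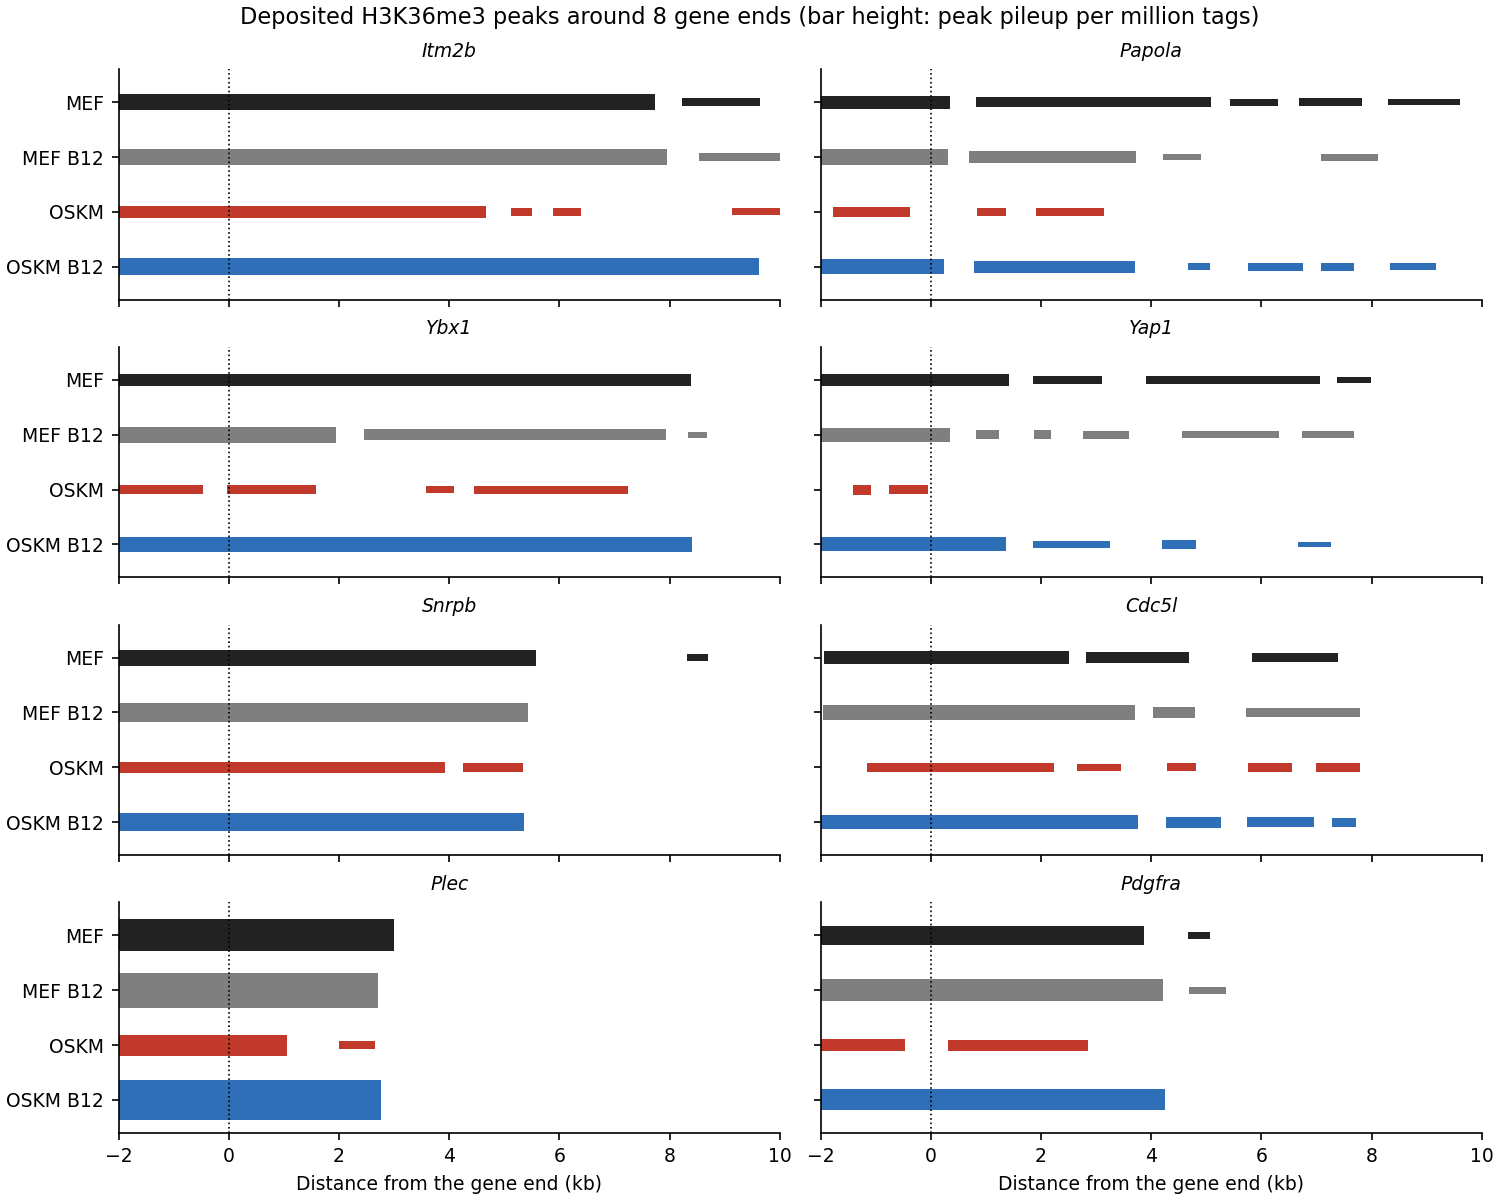
Deposited peaks from 2 kb before to 10 kb after the end of 8 genes (horizontal axis, kb from the gene end, transcription from left to right), 1 row per library, with bar height in proportion to the pileup per 1000000 tags. The OSKM bars are thinner and, at Itm2b, Ybx1, Papola and Yap1, also end earlier or break into pieces, whereas at Snrpb and Cdc5l they run about as far as in the other libraries.

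Among the 349 ends with a reach of at least 2 kb in MEF and a mark in OSKM, 34 had a longer reach in OSKM. The ends with the largest drop were chosen for it, so their values are a description. Papola, the gene of a poly(A) polymerase that itself acts at transcript ends, had reaches of 9595, 4908, -378 and 9165 bases and window densities of 0.368, 0.263, 0.0794 and 0.313. In OSKM the peak over its last 2 kb ended inside the gene, and further peaks lay from 840 to 1369 and from 1908 to 3149 bases past it. Yap1, the effector of Hippo signalling, had reaches of 7995, 7684, -58 and 4819 bases. Its window held 6435, 4597, 0 and 4008 bases of peaks, so that no base past the end was called in OSKM. Peaks this far out were faint: those from 3 to 8 kb past Yap1 in MEF had pileups of 9.88 to 12.3 fragments.

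Atp6v1c1, a subunit of the vacuolar proton pump, had reaches of 8582, 2703, 1044 and 8770 bases but covered lengths of 7339, 7013, 5072 and 7587 bases. MEF and MEF B12 had nearly the same covered length, although their reaches were over 5 kb apart. Mib1, an E3 ubiquitin ligase of Notch ligands, had reaches of 5083, 6301, -1476 and 5388 bases, with 3421 bases of its window still in peaks in OSKM. At the other extreme, Cdc5l, a splicing factor, had reaches of 4681, 7794, 7796 and 7724 bases and Xpo6, an exportin, 3697, 5838, 5346 and 6401 bases. Thoc3, a subunit of the THO complex of mRNA export, had 3028, 3481, 4080 and 3690 bases. In MEF, further peaks beyond a gap of over 1 kb lay from 5834 to 7390 bases at Cdc5l and from 4710 to 5561 at Xpo6. The covered length in MEF and OSKM was 5922 and 5141 bases at Cdc5l and 4180 and 3558 at Xpo6. At Thoc3 it was 2717 and 3411 bases. At all 3 of these ends the OSKM window density, 0.232, 0.177 and 0.168, was nevertheless below that of MEF, 0.351, 0.298 and 0.196.

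The ends with the largest gain from OSKM to OSKM B12 were Rnf7, a RING subunit of cullin ligases, together with Papola, Atp6v1c1, Mib1 and Ybx1 from the list of largest drops above. Rnf7 had reaches of 4472, 6656, -1727 and 9816 bases and covered lengths of 4811, 5891, 4389 and 7454 bases. Its OSKM window was about as covered as in MEF, but the mark in the last 2 kb, with a density of 0.0591 against 0.309 in MEF, did not join it. RefSeq has a long non-coding RNA in the Rnf7 window. The recurrence of the same names follows in part from the OSKM library being in both comparisons.

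Between MEF and MEF B12, the largest gains in reach were at Spin1, a reader of histone methylation, at Cyb5a, the gene of cytochrome b5, and at Dcun1d5, which acts in cullin neddylation. Spin1 had reaches of -1778, 4116, -1821 and -1455 bases, with MEF B12 alone past the end. Its covered lengths were 4479, 5800, 2047 and 3894 bases, so the other lists also held peaks in the window, unconnected to the end. Cyb5a had reaches of -1353, 4396, -1314 and 2376 bases and Dcun1d5 521, 5946, -1161 and 5421 bases, with both B12 libraries longer than both libraries without it. RefSeq takes Dcun1d5 12675 bases past the GENCODE end. The largest drops were at Actr2, a subunit of the Arp2/3 complex, at Atp6v1c1 and at Pja2, a ubiquitin ligase. Actr2 had reaches of 6059, -1356 and -541 bases in MEF, MEF B12 and OSKM B12 and no peak in its last 2 kb in OSKM, whereas its window density was 0.280, 0.272, 0.112 and 0.308. Pja2 had reaches of 4338, -1285, -1456 and -1267 bases and densities of 0.170, 0.172, 0.119 and 0.317. At these 2 ends MEF and MEF B12 had nearly equal densities despite reaches over 5 kb apart, so the reach of a single end depends on where gaps of over 1 kb fall.

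Groups of genes were described by counts beside the 53.1% of windows lower in OSKM, the 62.1% higher in OSKM B12 and the 22.7% higher in MEF B12. The median log2 change over all windows was -0.69, 1.03 and 0.06 in these comparisons, and the medians of a list are given in the same order. Members without a peak in their last 2 kb in OSKM entered the set through another list, so lower values in OSKM are in part built in. Of 69 genes of the extracellular matrix and fibroblast surface, 34 were in the set. Their window density was lower in OSKM than in MEF at 23 and higher at 2, and higher in OSKM B12 than in OSKM at 24 and lower at 2; 3 were higher in MEF B12. The median log2 changes were -1.20, 1.55 and 0.25. The median reach at the 30 marked in all lists was 966.5, 1190.5, 367 and 1331 bases. Pdgfra, a receptor of platelet-derived growth factor, had window densities of 0.392, 0.502, 0.145 and 0.468, and Pdgfrb, its relative, 0.421, 0.581, 0.199 and 0.615. Both fibroblast receptors were lowest in OSKM and had reaches of 5064 and 5622 bases in MEF, 2858 and 2956 in OSKM. Col5a2, a chain of fibrillar collagen V, had 0.284, 0.312, 0.114 and 0.367, and Col12a1, a fibril-associated collagen, 0.254, 0.316, 0.0835 and 0.233.

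Of 54 cytoskeleton and adhesion genes, 11 were in the set, 10 of them lower in OSKM and none higher, and 10 higher in OSKM B12. In MEF B12, 1 was higher and 0 lower. The median log2 changes were -1.41, 1.65 and 0.12. Actn1, an actin crosslinker, had window densities of 0.330, 0.358, 0.165 and 0.422, and its density in the last 2 kb was 0.796, 0.895, 0.0692 and 0.954. At Actn1 the OSKM list thus had almost no peak over the last 2 kb and 3879 bases of peaks past the end. Rock1, a kinase that acts on the actomyosin cytoskeleton, had window densities of 0.188, 0.176, 0.108 and 0.165 and no peak in its last 2 kb in OSKM, and Tpm1, tropomyosin, 0.227, 0.194, 0.0308 and 0.177.

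The machinery of 3′ end formation and termination gave 5 windows from 55 genes, of which 6 had isolated ends. All 5 were lower in OSKM and 3 were higher in OSKM B12. In MEF B12, 2 were lower and 0 higher, where 7.74% of all windows were lower. The medians were -2.33, 0.59 and -0.47. Besides Papola these included Papolg, a second poly(A) polymerase, with reaches of 6370, 6106, 6082 and 6273 bases and densities of 0.403, 0.390, 0.264 and 0.403. The contrast with Papola was in the reach, which at Papolg was alike in all lists, although RefSeq takes Papolg 2501 bases further. Cpsf2, a subunit of the cleavage and polyadenylation complex, had densities of 0.132, 0.0785, 0.0136 and 0.0824, and Zc3h4, a restrictor of non-coding transcription, 0.0515, 0.0441, 0 and 0.

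Among the 32 genes listed as writers, erasers and readers of H3K36 methylation, 4 windows were in the set. Window density was lower in OSKM at 2 and higher in OSKM B12 at all 4, and there was no call in MEF B12. The medians were -0.60, 1.18 and 0.13. Morf4l1 (MRG15), which binds methylated H3K36, had densities of 0.354, 0.385, 0.196 and 0.390 and reaches of 3716, 3879, 3848 and 3711 bases. Kdm4c, a demethylase, had 0.0964, 0.101, 0.0134 and 0.0933, and reaches of 1678, 1363, 258 and 1536 bases. Setd3, in the list although it is an actin histidine methyltransferase with a SET domain, had reaches of 1192, 1375, 1159 and 1484 bases. The counts and medians of the list include Setd3. Dnmt3a, a DNA methyltransferase whose PWWP domain reads the mark, was not marked in its last 2 kb in OSKM and had densities of 0.0357, 0.0405, 0.0253 and 0.0831.

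For 81 chromatin and transcription regulators, 21 windows were in the set, 10 lower and 1 higher in OSKM, 12 higher in OSKM B12 and 5 higher and 2 lower in MEF B12. Their medians were -0.37, 0.71 and 0.00. Ino80, the ATPase of a nucleosome remodeller, had densities of 0.235, 0.292, 0.0710 and 0.389, and Hdac2, a histone deacetylase, 0.147, 0.189, 0.0788 and 0.134. Twist2, a mesenchymal transcription factor, had 0.0655, 0.104, 0.0610 and 0.144, with OSKM close to MEF. The TGF-beta, BMP, WNT and YAP list gave 14 windows from 44 genes, 7 lower and 1 higher in OSKM, 9 higher in OSKM B12 and 7 higher in MEF B12. Medians here were -0.53, 1.19 and 0.47. Amotl1, a YAP-binding scaffold, had 0.145, 0.173, 0.105 and 0.162, Smad6, an inhibitory SMAD, 0.0562, 0.0726, 0.0412 and 0.117, and Tgfbr3, a TGF-beta co-receptor, 0.0848, 0.108, 0.0173 and 0.0753. Smad1, a BMP effector, had 0.0578, 0.0544, 0.0567 and 0.0741, a spread too small for a call in any comparison.

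From 36 genes of the vitamin B12, methionine and folate cycles, 5 windows were in the set, 2 lower in OSKM, 3 higher in OSKM B12, and 1 higher and 1 lower in MEF B12. Their medians were -0.56, 0.93 and 0.00. Ahcyl1, a relative of S-adenosylhomocysteine hydrolase, had densities of 0.255, 0.428, 0.136 and 0.355 and reaches of 4892, 5971, 3433 and 5595 bases. Mmadhc, which directs B12 to its enzymes, had 0.154, 0.190, 0.101 and 0.202, and Lmbrd1, needed for B12 to leave the lysosome, had 0.00664, 0, 0 and 0.0119. The window of Tyms, thymidylate synthase, held no peak in any list, with reaches of -1414, -170, -204 and -1527 bases. RefSeq takes Tyms 19656 bases past the GENCODE end, so this window lies inside the gene by that annotation. The pluripotency and reprogramming list gave 6 windows from 35 genes, all 6 lower in OSKM and 5 higher in OSKM B12. In MEF B12, 2 were higher and 0 lower. Only 3 of the 6 were marked in all 4 lists, and Klf4 and Tet2 had no peak in their last 2 kb in OSKM. The medians of the 6 windows were -1.76, 2.21 and 0.30. Klf2 had 0.153, 0.136, 0.0648 and 0.135. Klf4, the endogenous copy of a factor in the cassette, had 0.0314, 0.0688, 0 and 0.0499. Glis1 had 0.0475, 0.0579, 0.0144 and 0.0769, and Tet2, a methylcytosine dioxygenase, 0.0420, 0.0556, 0 and 0.0579.

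Of 52 genes of protein synthesis and folding, 6 windows were in the set, 5 lower in OSKM, 5 higher in OSKM B12 and 1 higher in MEF B12. The medians were -0.84, 1.08 and 0.28. Rps24, a ribosomal protein gene, had densities of 0.237, 0.264, 0.131 and 0.317 with reaches of 2836, 2751, 2287 and 3216 bases. Rpl15, another, had reaches of 3422, 3718, 1313 and 3385 bases, Hspe1, a mitochondrial chaperonin, 2750, 2768, 885 and 2938 bases, and Eif4e, the cap-binding factor, 1381, 2369, -255 and 1632 bases. At the last 3 the OSKM reach was below the other 3 by over 1 kb, and at Rps24 it was not.

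The rule that chose the windows has an edge. Just inside it, Ube2v2 entered with 10 bases of a peak in its last 2 kb in OSKM B12, and Rad51c with 14 bases in MEF B12. Just outside, the nearest peaks upstream of the ends of Mdm1 and Rnf125 lay 2004 and 2008 bases away. Of the set, 216 ends were marked in 1 list only and 164 in 2, and the counts over the ends marked in all 4 lists leave these out.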

How the data were processed

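The values were the 4 deposited lists of broad peaks, 1 per H3K36me3 library, each called by the authors against its own input and never on pooled libraries. Per the submitters' notes and the study's methods, reads were aligned to mm10 with Bowtie 0.12.9, runs were merged, duplicates were removed, and peaks were called with MACS2 2.2.6 at q-value cut-offs of 0.05 (strong) and 0.1 (broad), on 75-base tags with an effective genome size of 3.21e+09. The deposited pileup is a signal (mean fragment coverage of a peak), fold enrichment is a ratio to the local input, and the deposited significance is a −log10 p-value or q-value. The label of the antibody reads H3K3me3, while that of the immunoprecipitation reads H3K36m3.

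From these, reach, covered bases and density (pileup per 1000000 tags, 0 outside peaks) were computed with Python 3.11, numpy and scipy in windows of 10 kb set by GENCODE M21. A fold of 1.5 with a pseudocount of 0.01 counted as a call; there was no test, since each condition had 1 library. The interval arithmetic was tested on simulated data. Windows, gene lists and the rule for the genes named (the highest densities in MEF, the largest changes in reach, and up to 4 genes per list) were chosen with earlier results of these data known. The rule left out ends overlapped by another gene. Alternatives covered peak filters, gaps, isolation, gene ends, window length, scaling, pseudocount and fold. An end without a peak is one where no mark was detectable at this depth. Coverage outside peaks was not analysed here.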

Additional observations from a re-analysis of the deposited data

How the results depend on the processing

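No paired analysis was possible because no condition had more than 1 library. Of 144 alternative values, 95 stayed near the main one and 49 moved. Only ratios could be labelled as reversed, by crossing 1, and 0 were. Counts and shares could only stay or move. The ratios of OSKM to MEF stayed below 1 (0.0848 to 0.754), those of OSKM B12 to OSKM above 1 (1.60 to 17.0) and those of MEF B12 to MEF above 1 (1.10 to 1.43). Equal numbers of peaks, a fold enrichment of at least 2, ends of protein-coding transcripts and windows without RefSeq genes moved no result; the last, and equal covered bases, were chosen after seeing the data. A −log10 q of at least 5 left 91 window peaks in OSKM and 641 in MEF. No alternative thinned the libraries to a common depth.

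In each group below, counts of windows are lower in OSKM, higher in OSKM B12 and higher in MEF B12; ratios follow the same order; shares are ends with a reach of 1 kb or more in the order MEF, MEF B12, OSKM, OSKM B12; and reach counts are ends shorter in OSKM and longer in OSKM B12 by 1 kb or more. When peaks needed a −log10 q of at least 5, counts were 591, 732 and 305 and the ratios 0.0848, 17.0 and 1.43, from fewer peaks. The shares were 46.6, 50.1 and 48.2% (OSKM near its main value). The reach counts were 62 and 72, each of 148 ends still marked in both lists. In the main setting the reach counts were 540 of 1423 and 602 of 1433. With peaks starting past the end only, the first counts were 492 and 579 and the ratios 0.754, 1.60 and 1.10. At equal covered bases, the counts were 519, 569 and 236 and the first ratios 0.635 and 1.84. The shares were 46.3% in MEF and 50.4% in MEF B12 (of 1056 and 990 ends still marked). The reach counts were 211 of 990 and 205 of 922 ends marked in both lists. Isolation of 30 kb left fewer windows, 1107 in all, with counts of 569, 672 and 253. Its shares were 43.3, 24.4 and 43.2% in all but MEF, and its reach counts 259 of 703 and 298 of 711. With no gap bridged the shares were 32.3, 35.3, 14.2 and 33.5%, and with gaps of up to 2 kb bridged 47.7, 51.9, 34.4 and 51.2%. Over ends marked in all 4 lists they were 53.0% in MEF, 57.6% in MEF B12 and 56.9% in OSKM B12. Without division by tags the ratios were 2.67 for OSKM B12 to OSKM and 1.11 for MEF B12 to MEF. A pseudocount of 0.05 gave 722 windows lower in OSKM and 189 higher in MEF B12, and a fold of 2 gave 268 higher in MEF B12. Where not given by the construction, the cause was not tested.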
